A study of Rattus norvegicus with 144 samples.

Results

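Short annotated transcripts, under 700 bases long, were followed in 3 brain regions of rats that carried an HIV-1 transgene and of control rats, after nicotine or saline. The members were chosen by their annotation, their length, and their level. The assembled transcript had to be classed as a match to an Ensembl transcript (class code "=") and be shorter than 700 bases. In every one of the 4 groups of a region, no fewer than 6 of 12 rats had to exceed an FPKM of 1 (fragments per kilobase of transcript, scaled to the mapped fragments of the library). This gave 1059 of 39045 annotated transcripts in the prefrontal cortex (PFC), 1226 of 39065 in the dorsal hippocampus (HIP), and 1232 of 39027 in the dorsal striatum (STR). Together these were 1367 different transcripts, of which 943 met the rule in all 3 regions. The rule used the FPKM of all 4 groups, so levels are given as a description, without a test. The length of an assembled transcript can differ between rats, and the median over the 48 rats of a region was used. Under that median, 300, 309, and 318 of the members of the PFC, HIP, and STR still reached 700 bases or more in at least 1 rat. The longest such lengths were 8571, 9063, and 8334 bases.

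The study compared adult male HIV-1Tg rats, whose transgene is an HIV-1 provirus that lacks gag and pol and is driven by its own promoter in the LTRs, with rats of their background strain F344. Each strain was given nicotine or saline under the skin, which made the groups F344_Sal, F344_Nic, HIV_Sal, and HIV_Nic, with 12 rats each. The nicotine solution held 0.25 mg/ml and was injected at 1 ml/kg, 2 times daily, over 17 days. All of these rats had served in an earlier behavioural study and were housed in pairs. RNA from the 3 regions made 144 libraries, 48 in each region, of paired-end reads.

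Genes with short transcripts code for small proteins, among them ribosomal proteins, small subunits of the respiratory chain, histones, and the precursors of many neuropeptides and chemokines. Annotated transcripts under 200 bases are mostly small non-coding RNAs or their precursors, such as small nuclear, nucleolar, and micro RNAs. Libraries made after poly(A) selection capture such RNAs poorly, since most of them carry no poly(A) tail. A fragment must also fit within the transcript it comes from, so Cufflinks divides by an effective length that falls steeply below the nominal length when the transcript is about as short as the fragments. The tables list transcripts by Ensembl identifier, and the reference table used here paired 0 of them with a gene symbol. Members are therefore described by length and region, with 2 identifiers of transcripts that fell and 2 of transcripts that rose, and their functions, the marker genes of cell types and regions, and their sequences were not analysed here.

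Some libraries stood apart. In the PFC, the members of 400 to under 700 bases held between 9.63% and 14.2% of the summed FPKM of the F344_Sal, F344_Nic, and HIV_Sal rats, but up to 23.0% in HIV_Nic rats, and the 2 highest libraries were HIV_Nic replicates 10 and 11. In these, transcripts of 5000 bases or more held as little as 1.42% of the sum, against a group median of 6.68%. In the HIP, HIV_Nic replicate 4 had 17.7% and 3.38% for the same classes. A different feature marked 10 of the 12 F344_Nic libraries of the PFC. The base coverage per FPKM of members of 200 to under 400 bases, relative to transcripts of 2000 bases or more in the same library, was between 0.897 and 0.924 in these 10 libraries. It was 0.736 to 0.796 in the 36 libraries of the other groups, and 0.776 and 0.783 in F344_Nic replicates 4 and 8. In the STR, HIV_Sal replicates 2 to 7 stood apart within their group. Their coverage per FPKM of members of 400 to under 700 bases was 0.812 to 0.822, against 0.835 to 0.849 in the other 6 HIV_Sal libraries and 0.821 to 0.851 in the other groups. Members under 200 bases held 0.927% to 1.63% of their summed FPKM, against 0.506% to 0.767% and 0.516% to 1.18%. The main counts of changed members are given with and without these libraries.

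Few of the shortest annotated transcripts reached the level rule. It was met by 49 of 4716 transcripts under 200 bases in the PFC, by 278 of 2409 of 200 to under 400 bases (11.5%), and by 732 of 3614 of 400 to under 700 bases (20.3%). In the HIP these were 51, 324, and 851 members (1.08%, 13.4%, and 23.4%), and in the STR 57, 323, and 852 (1.21%, 13.4%, and 23.6%). Of all annotated transcripts under 700 bases, 4988, 5167, and 5075 in the PFC, HIP, and STR had the value 0 in every rat with a value. The longest member of each region was at most 1 base under the limit, and the shortest transcripts left out by length measured 700 bases. At the level threshold, 52, 67, and 59 members had exactly 6 rats above 1 FPKM in their lowest group, with a median of 2.77, 2.14, and 1.99 FPKM over the members. The 65, 62, and 53 short transcripts with 5 such rats had medians of 1.58, 1.66, and 1.93 FPKM.

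In FPKM, a level per length, the members of 200 to under 700 bases were above longer transcripts that met the same rule, but how far above depended on the scale and on which longer transcripts were taken. The median FPKM over the members, taken in each rat, averaged 6.35 ± 2.24 (SD, n = 48) under 200 bases, 11.7 ± 2.56 at 200 to under 400 bases, and 12.3 ± 2.11 at 400 to under 700 bases in the PFC. Without HIV_Nic replicates 10 and 11 these means were 6.29, 11.5, and 12.0 FPKM, and with only replicates 4 and 8 of the F344_Nic rats 6.53, 12.8, and 12.9 FPKM. In the HIP the values were 7.00 ± 2.48, 10.4 ± 1.05, and 9.82 ± 0.781 FPKM (6.93, 10.3, and 9.75 FPKM without HIV_Nic replicate 4), and in the STR 6.06 ± 1.86, 10.6 ± 0.75, and 9.93 ± 0.526 FPKM (SD, n = 48 each). For transcripts of 700 bases or more the same measure was 6.87 ± 0.361, 6.76 ± 0.143, and 6.74 ± 0.218 FPKM in the 3 regions, and for the nearest class, of 700 to under 2000 bases, 8.74 ± 0.803, 8.18 ± 0.505, and 8.28 ± 0.41 FPKM. On a coverage scale, which replaces FPKM by base coverage divided by the coverage per FPKM of long transcripts, the gap narrowed. The members of 400 to under 700 bases then averaged 10.1, 7.58, and 7.65, against 6.72, 6.61, and 6.59 for transcripts of 700 bases or more and 8.31, 7.78, and 7.86 for those of 700 to under 2000 bases. At 200 to under 400 bases they averaged 8.59, 7.68, and 7.86, so on this scale only the PFC members of 400 to under 700 bases were above the nearest class by more than the SD of either. Those under 200 bases averaged 3.74, 4.47, and 3.95 on that scale, but 10.4, 11.8, and 8.97 FPKM once values close to 0 and outliers were removed, so their level depended on the processing. The members made up a small part of the summed FPKM. The medians over rats were 0.941%, 4.59%, and 11.4% of the summed FPKM in the PFC for the 3 length classes, 1.26%, 4.73%, and 11.9% in the HIP, and 0.746%, 4.60%, and 12.5% in the STR.

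**Figure D1:**
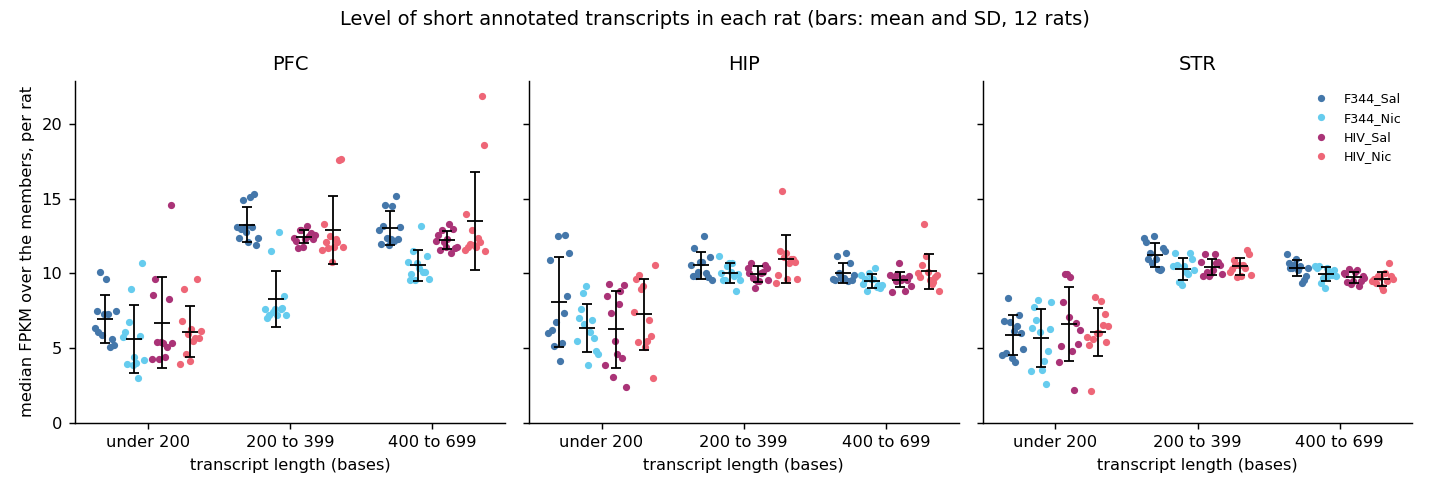
Median FPKM over the members of each length class (y axis, linear) in each rat (points, coloured by group), with the mean and SD of 12 rats (black bars), for the 3 regions. The F344_Nic rats of the PFC sit lowest at 200 to under 400 bases, with a mean of 8.28 FPKM against 12.5 to 13.3 in the other groups.

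Levels were spread widely over members. In the PFC the middle of the members lay between 4.24 and 32.0 FPKM at 200 to under 400 bases and between 5.39 and 34.9 FPKM at 400 to under 700 bases (lower and upper quartile of the members' medians over rats). Members with a median above 100 FPKM numbered 7, 20, and 57 in the 3 length classes of the PFC, 6, 20, and 56 in the HIP, and 4, 22, and 63 in the STR. The highest member of each region was of 400 to under 700 bases, with a median of 710 FPKM in the PFC (538 bases), 667 FPKM in the HIP (622 bases), and 836 FPKM in the STR (573 bases). These 3 differed in how steady they were. The 622-base transcript ranged from 485 to 1134 FPKM over the 48 HIP libraries, whereas the 538-base transcript ranged from 0 to 1246 FPKM in the PFC and the 573-base transcript from 156 to 1362 FPKM in the STR. At 200 to under 400 bases the highest members had medians of 609 FPKM in the PFC (228 bases), 603 FPKM in the HIP (222 bases), and 438 FPKM in the STR (264 bases). Under 200 bases a transcript of 96 bases was highest in the PFC, with a median of 261 and a range of 9.12 to 1010 FPKM. The same transcript was highest in the HIP, with a median of 648 and a range of 8.02 to 1337 FPKM. In the STR it was a transcript of 97 bases, with a median of 257 and a range of 100 to 1655 FPKM.

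Members that met the rule in all 3 regions had similar median levels there, as far as tables normalized separately can show. The rule left out transcripts that were low in any region, so this similarity is partly set by the choice of members. For the 943 members found in all regions, the highest regional median was a median of 1.31 times the lowest, and it was more than 2 times the lowest for 77 of them. The largest ratio belonged to a transcript of 315 bases, with medians of 26.5 FPKM in the PFC, 76.3 FPKM in the HIP, and 1.45 FPKM in the STR. Its libraries ranged from 0 to 42.9, from 0 to 109, and from 0 to 72.2 FPKM, so the ranges of the regions overlapped. The highest STR member, at 836 FPKM, had medians of 170 and 126 FPKM in the PFC and HIP.

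The spread between rats did not fall steadily with length. The SD of log2(FPKM + 0.1) over the 12 rats of a group had a median over members of 1.82, 2.00, and 2.07 in the PFC, HIP, and STR under 200 bases. At 200 to under 400 bases it was 0.45, 0.43, and 0.41, and at 400 to under 700 bases 0.35, 0.33, and 0.34. Transcripts of 700 bases or more that met the level rule had 0.60, 0.61, and 0.64, so members of 200 to under 700 bases were the steadiest length classes in each region. Values of 0 moved with the spread. They made up 13.1%, 12.8%, and 13.2% of the values under 200 bases, 4.14%, 4.13%, and 3.61% at 200 to under 400 bases, 3.07%, 3.20%, and 3.14% at 400 to under 700 bases, and 6.09%, 5.93%, and 5.92% at 700 bases or more. The confidence interval that Cufflinks gave for a value moved otherwise. The distance from the FPKM to the edge of that interval, averaged over both edges, was 1.21, 1.27, and 1.5 times the FPKM under 200 bases (median over values), 0.286, 0.339, and 0.317 times at 200 to under 400 bases, 0.194, 0.240, and 0.224 times at 400 to under 700 bases, and 0.134, 0.156, and 0.148 times at 700 bases or more. When values close to 0 and outliers were removed, the spread under 200 bases in the STR was 0.63.

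**Figure D2:**
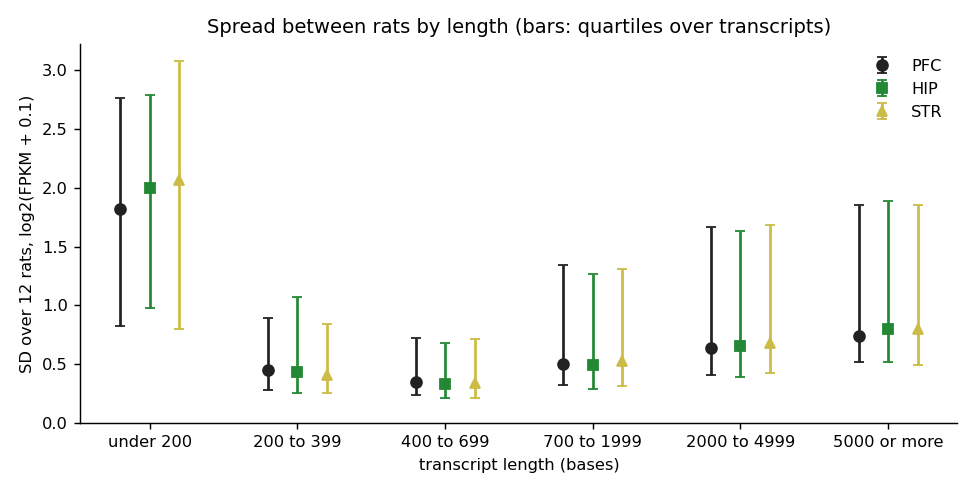
SD of log2(FPKM + 0.1) over the 12 rats of a group (y axis, linear), as the median over transcripts that met the level rule, by length class (x axis), with quartiles over transcripts as bars and regions as symbols. The medians are lowest at 400 to under 700 bases (0.33 to 0.35) and highest under 200 bases (1.82 to 2.07).

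Most members belonged to genes with 1 annotated transcript in the tables. This held for 100% of members under 200 bases in each region, for 96.0%, 95.4%, and 96.3% at 200 to under 400 bases, and for 90.8%, 90.8%, and 91.4% at 400 to under 700 bases in the PFC, HIP, and STR, against 61.1%, 61.3%, and 61.6% of transcripts of 700 bases or more. Members of 400 to under 700 bases that shared a gene with another transcript had a wider spread, with medians of 0.88 (67 members), 1.52 (78 members), and 1.16 (73 members), against 0.36, 0.31, and 0.32 for those that did not. The steadiest and least steady members show how far apart these extremes were. The steadiest of the PFC, of 661 bases, had an SD of 0.09 and ranged from 9.10 to 24.5 FPKM over all 48 libraries, with a median of 12.5 FPKM. In the STR a transcript of 606 bases, also with an SD of 0.09, ranged from 22.8 to 32.7 FPKM. A transcript of 350 bases was the steadiest of its class in both the HIP (SD 0.12, 63.2 to 132 FPKM) and the STR (SD 0.09, 74.0 to 106 FPKM). The least steady members alternated between 0 and a high value. A 524-base transcript of the PFC, from a gene with 4 transcripts, had an SD of 5.13 and was at 0 in 2 F344_Sal, 4 F344_Nic, 2 HIV_Sal, and 4 HIV_Nic rats, with a median of 175 FPKM in the F344_Sal rats. A transcript of 80 bases in the HIP had an SD of 5.23 and a range of 0 to 1009 FPKM, and it was at 0 in 6 of the 12 HIV_Sal rats.

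Between HIV_Sal and F344_Sal rats, few members changed, and those that did were mostly lower in the HIV_Sal rats. A transcript was tested by limma on log2(FPKM + 0.1), and a change was called where the unadjusted p was under 0.05 and the fold change over 1.2. In the PFC, 4 members were higher and 21 lower, 2.36% of the members, against 4.03% of all 14803 transcripts tested (1.47% higher and 2.55% lower). In the fit without HIV_Nic replicates 10 and 11, which are in neither group, 6 were higher and 36 lower. In the HIP, 6 were higher and 51 lower (4.65%, against 4.4% of all tested, 1.99% higher and 2.41% lower). In the STR, 27 were higher and 79 lower (8.60%, against 6.0% of all tested, 2.37% higher and 3.62% lower). The median log2 fold change over the members was -0.09, -0.07, and -0.11 in the PFC, HIP, and STR, and over all transcripts tested -0.03, -0.01, and -0.04. Without HIV_Sal replicates 2 to 7 the STR had 17 higher and 63 lower, and with these 6 alone as the HIV_Sal group 50 and 163. Of all transcripts tested in the STR, 819 and 1164 changed in these 2 fits, against 905 with all libraries. With median scaling, the STR had 36 higher and 47 lower, so the balance of directions there depended on the scaling. After Benjamini-Hochberg adjustment over all transcripts tested, 1 member remained in the PFC (0.0203% of all tested passed), 1 in the HIP (0.0535%), and 2 in the STR (0.0596%), and all 4 were lower in the HIV_Sal rats. In the STR, 0 remained without HIV_Sal replicates 2 to 7 by limma, and 46 passed with only these 6.

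The transcript ENSRNOT00000007811, of 397 bases, was lower in HIV-1Tg than in F344 rats in all 3 regions, with saline and with nicotine. It was the only member past the unadjusted threshold in the same direction between saline-treated strains in all 3 regions. In the PFC, the F344_Sal rats ranged from 2.45 to 10.1 FPKM (median 4.44) and the HIV_Sal rats from 1.46 to 2.83 FPKM (median 2.19). Of the 12 HIV_Sal rats, 9 lay below the lowest F344_Sal rat, and the log2 fold change was -0.99 (SE 0.17, adjusted p = 0.00568 by limma). In the HIP, the F344_Sal rats ranged from 1.5 to 4.73 FPKM (median 2.47) and the HIV_Sal rats from 0.638 to 2.33 FPKM (median 1.29), a log2 fold change of -1.06 (SE 0.22, adjusted p = 0.0346 by limma). That call was lost with the replicate block (adjusted p = 0.0637 by limma), without the filter (0.0555), and with only the 2 groups compared (0.293). In the STR, the F344_Sal rats ranged from 1.60 to 4.58 FPKM (median 2.73) and the HIV_Sal rats from 0.504 to 2.80 FPKM (median 1.69), and the log2 fold change was -0.95 (SE 0.24, adjusted p = 0.119 by limma), past the unadjusted threshold alone. Without HIV_Sal replicates 2 to 7 it was -1.20 (SE 0.26, adjusted p = 0.14 by limma), and with only these 6 -0.69. The nicotine-treated strains share no rat with these. Their log2 fold changes were -0.94 in the PFC (SE 0.17, adjusted p = 7.89e-05 by limma), -0.84 in the HIP (SE 0.22, adjusted p = 0.262), and -0.65 in the STR (SE 0.24, adjusted p = 0.545). In the PFC, the F344_Nic rats ranged from 3.05 to 4.82 FPKM and the HIV_Nic rats from 1.02 to 3.36 FPKM, and 11 of the 12 HIV_Nic rats lay below the lowest F344_Nic rat. In the HIP the rats below the lowest F344 rat were 7 of 12 with saline and 1 of 12 with nicotine, and in the STR 6 and 5 of 12. In the 10 F344_Nic libraries that stood apart the transcript had 3.05 to 4.82 FPKM, and in replicates 4 and 8 it had 3.91 and 3.62 FPKM. With only replicates 4 and 8 kept, the log2 fold change in the PFC of nicotine rats was -0.93 and its adjusted p 0.658 by limma. Nicotine changed it in neither strain at an unadjusted p under 0.05. It differed past the unadjusted threshold in all 6 comparisons under every alternative run. The study took the 3 regions from each brain, so the regional comparisons within a drug drew on the same rats and are not independent.

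**Figure D3:**
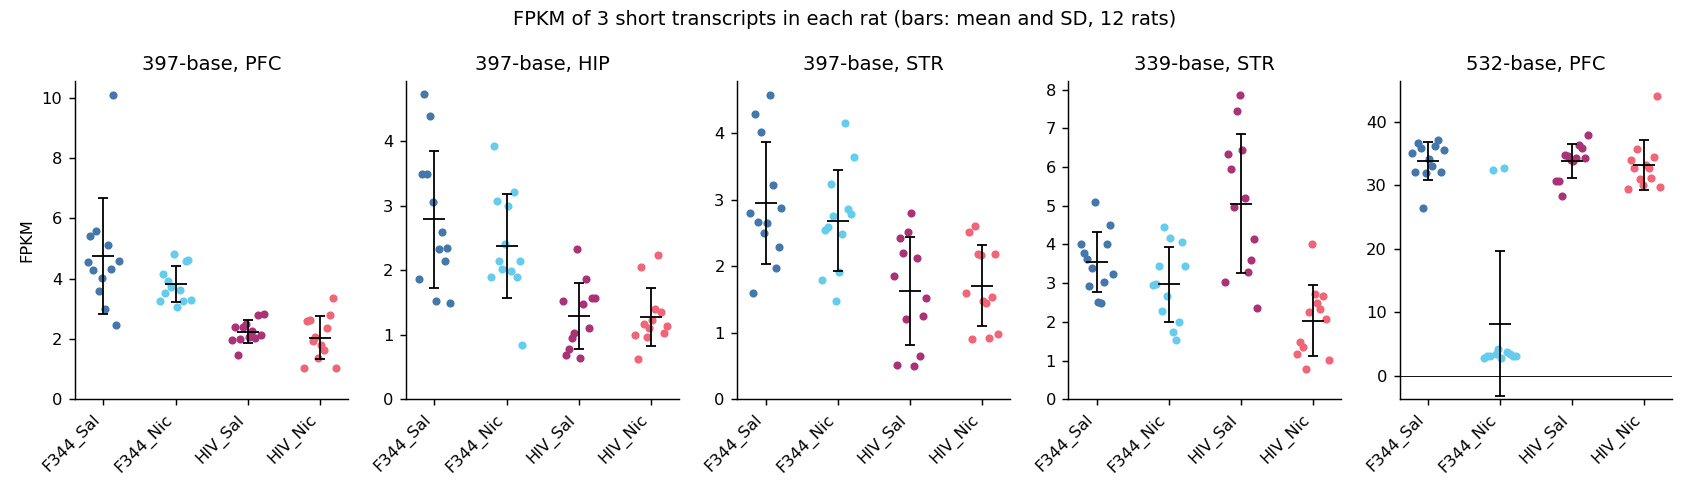
FPKM (y axes, linear, on separate scales) of 3 members in each rat (points), by group, with the mean and SD of 12 rats (black bars). The 397-base transcript is lower in the HIV-1Tg groups of each region, the 339-base transcript of the STR is at 4.97 to 7.87 FPKM in HIV_Sal replicates 2 to 7 and at 2.36 to 5.21 FPKM in the other HIV_Sal rats, and the 532-base transcript of the PFC is at 2.79 to 4.26 FPKM in 10 F344_Nic rats and at 26.4 FPKM or more in all others.

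The other members past the adjusted threshold in saline rats were both in the STR and changed little. A 456-base transcript ranged from 62.9 to 90.4 FPKM in F344_Sal (median 75.7) and from 57.2 to 68.1 FPKM in HIV_Sal rats (median 63.7), a log2 fold change of -0.25 (SE 0.05, adjusted p = 0.0421 by limma). A 483-base transcript ranged from 280 to 409 FPKM (median 342) and from 239 to 320 FPKM (median 297), also a log2 fold change of -0.25 (SE 0.05, adjusted p = 0.0252 by limma). In both, the ranges of the groups overlapped. Without HIV_Sal replicates 2 to 7 the log2 fold changes were -0.20 and -0.18 (SE 0.07 and 0.06, adjusted p = 0.649 each by limma), and with only these 6 they were -0.30 and -0.33 (adjusted p = 0.0116 and 0.00182 by limma). Neither remained past the adjusted threshold with only the 2 groups compared, with the replicate block, or with median scaling, and the 456-base transcript was also lost without the filter, whereas 8 members of the STR passed it without HIV_Sal replicate 1. Of those that passed the unadjusted threshold, 2 risers in the PFC had values of 0 in F344_Sal rats. A 558-base transcript was at 0 in 5 of the 12 F344_Sal rats and ranged from 6.08 to 14.1 FPKM in the HIV_Sal rats (log2 fold change 2.69, SE 0.95). A 458-base transcript was at 0 in 3 F344_Sal rats (log2 fold change 1.43, SE 0.55). With values close to 0 and outliers removed the log2 fold changes were -0.09 and -0.01. In the STR a 686-base transcript was at 0 in 4 F344_Sal rats and between 2.26 and 8.59 FPKM in HIV_Sal rats (log2 fold change 2.57, SE 0.61, adjusted p = 0.0951 by limma, and 2.04, SE 0.79, adjusted p = 0.801 without HIV_Sal replicates 2 to 7). In the HIP, a 643-base transcript fell from a median of 98.7 FPKM in F344_Sal (67.9 to 115) to 72.3 FPKM in HIV_Sal rats (42.6 to 90.6), a log2 fold change of -0.43 (SE 0.12, adjusted p = 0.613 by limma).

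Some members changed between strains both in saline and in nicotine rats. Whether these overlaps exceed those that the numbers of changed members alone would give was not tested. The comparisons share no rat. In the PFC, 7 members changed in both, 1 of them in the same direction, which is 4.0% of the 25 members changed in saline rats and 0.25% of the 400 changed in nicotine rats. Of all transcripts tested there, 77 changed in both, out of 596 changed in saline and 1892 in nicotine rats, and 43 of the 77 in the same direction. The nicotine comparison holds the 10 F344_Nic libraries that stood apart. With only F344_Nic replicates 4 and 8, 1 member changed in both, in the same direction, and of all transcripts tested 25 did, 15 in the same direction. In the HIP, 1 member changed in both, the 397-base transcript, out of 57 changed in saline and 72 in nicotine rats. Of all transcripts tested, 41 did, out of 658 and 768, and 27 of the 41 in the same direction. In the STR, 15 changed in both and 11 in the same direction (10.4% of 106 and 8.73% of 126), with 8 lower and 3 higher in HIV-1Tg rats. Of all transcripts tested in the STR, 83 changed in both, out of 905 changed in saline and 850 in nicotine rats, and 64 in the same direction. Without HIV_Sal replicates 2 to 7, 13 members changed in both and 9 in the same direction, and of all transcripts tested 57 and 40. Among the 11, the 519-base transcript ENSRNOT00000056573 was higher in HIV-1Tg rats. It had medians of 6.16 FPKM in F344_Sal (3.76 to 7.57), 6.31 FPKM in F344_Nic (4.62 to 7.56), 7.59 FPKM in HIV_Sal (5.15 to 9.18), and 7.65 FPKM in HIV_Nic rats (5.78 to 9.16). The log2 fold changes were 0.37 in saline rats (SE 0.12, adjusted p = 0.323 by limma) and 0.28 in nicotine rats (SE 0.11, adjusted p = 0.616 by limma). A 552-base transcript was lower, with log2 fold changes of -0.42 and -0.43 (SE 0.14 each) and medians of 12.2 and 11.4 FPKM in the F344_Sal and F344_Nic rats and 8.72 and 8.85 FPKM in the HIV_Sal and HIV_Nic rats. A 431-base transcript among the 11 was at 0 in 5 rats of each F344 group and in 1 rat of each HIV-1Tg group, and its log2 fold change in saline rats was 3.25 (SE 1.60) with all values and -0.01 once values close to 0 and outliers were removed.

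In the PFC, members were widely lower in F344_Nic rats, of which 10 of 12 libraries were those with the high coverage per FPKM. Between F344_Nic and F344_Sal rats, 41 members were higher and 318 lower (33.9%, against 10.5% of all 14583 transcripts tested, 2.82% higher and 7.64% lower), and 254 passed the adjusted threshold (5.17% of all tested), 16 higher and 238 lower. By length, 7 of 49 members under 200 bases, 100 of 278 at 200 to under 400 bases, and 211 of 732 at 400 to under 700 bases were lower. Of the transcripts of 700 bases or more that met the level rule, 355 of 8391 were lower and 186 were higher. The median log2 fold change was -0.27, -0.25, and -0.17 in the 3 length classes and 0.01 at 700 bases or more. When only replicates 4 and 8 of the F344_Nic rats were kept, 1 member was higher and 27 lower (3, 8, and 16 in the 3 length classes), and 1 passed the adjusted threshold, in a fit that has fewer samples. When replicates 4 and 8 alone were left out, 54 were higher and 339 lower. On the coverage scale, which divides by the coverage per FPKM of long transcripts and so leaves out only that of the members themselves, 62 were higher and 245 lower, and 193 passed the adjusted threshold.

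For part of the members, these 10 libraries stood clear of all others. For 147 of the 1059 members (13.9%), the 10 libraries all lay below the 36 libraries of the other groups, against 2.25% of all transcripts tested and 0.775% of those of 700 bases or more. F344_Nic replicates 4 and 8 lay within the range of the 36 for 988 of the members (93.3%) and for 92.3% of the transcripts of 700 bases or more. On the coverage scale, the 10 libraries all lay below the 36 for 91 members (8.59%), against 1.52% of all transcripts tested and 0.334% of those of 700 bases or more. A 532-base transcript had 2.79 to 4.26 FPKM (median 3.17) in the 10 libraries, 32.4 and 32.8 FPKM in replicates 4 and 8, and 26.4 to 44.1 FPKM (median 34.0) in the 36 others. Its log2 fold change was -2.78 (SE 0.26, adjusted p = 2.3e-10 by limma). A 509-base transcript had 1.33 to 2.68 FPKM in the 10 libraries, 46.1 and 51.9 FPKM in replicates 4 and 8, and 39.6 to 91.3 FPKM in the others. A few members went the other way. Another transcript of 509 bases had 25.2 to 33.5 FPKM in the 10 libraries, 3.17 and 4.51 FPKM in replicates 4 and 8, and 3.25 to 16.2 FPKM in the 36 others, so its log2 fold change of 2.12 (SE 0.29) with all libraries was -0.35 with only replicates 4 and 8. A 656-base transcript had 204 to 255 FPKM in the 10 libraries, 110.0 and 123 FPKM in replicates 4 and 8, and 84.7 to 133 FPKM in the others. The part that the preparation or processing of these libraries had in the differences was not tested.

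**Figure D4:**
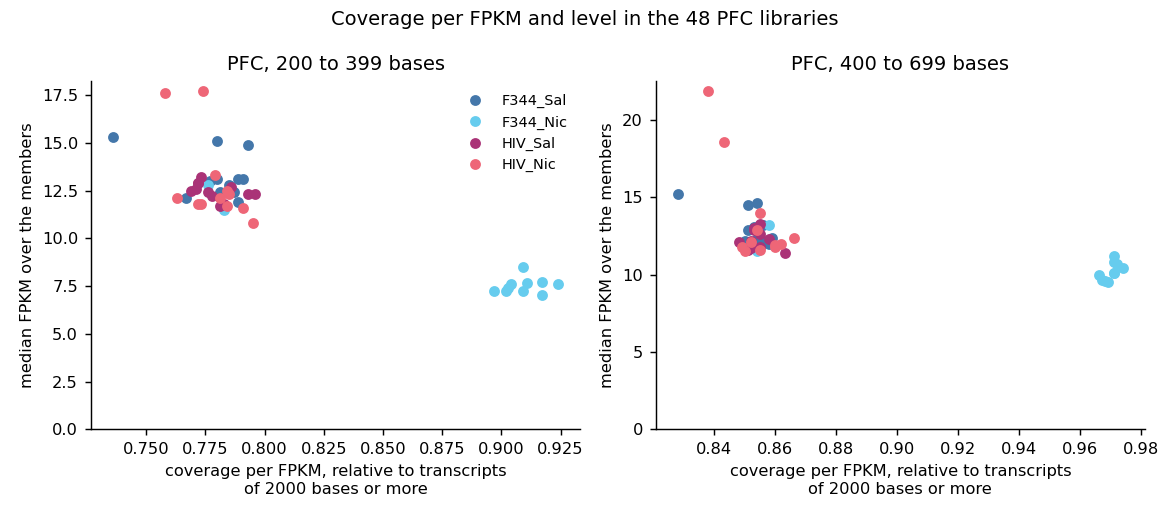
Median FPKM over the PFC members (y axes, linear, from 0) against the coverage per FPKM of the same members relative to transcripts of 2000 bases or more (x axes, linear, not from 0), in each of the 48 PFC libraries, coloured by group. At 200 to under 400 bases, 10 F344_Nic libraries sit at a ratio of 0.897 to 0.924 and 7.02 to 8.51 FPKM, apart from the other 38, and the 2 highest points are HIV_Nic libraries.

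The same libraries stand in the comparison of strains in nicotine rats. In the PFC, 347 members were higher and 53 lower in HIV_Nic than in F344_Nic rats (37.8%, against 13.1% of all 14496 tested, 8.11% higher and 4.95% lower), and 265 passed the adjusted threshold (5.55% of all tested), 249 of them higher. With only replicates 4 and 8 of the F344_Nic group, 30 were higher and 3 lower, and 1 passed the adjusted threshold. That fit has fewer samples, so its counts cannot be set directly against those of the full fit. Without HIV_Nic replicates 10 and 11, 284 were higher, 78 lower, and 285 past the adjusted threshold. A 405-base transcript had the second smallest p of those that rose, after the 532-base transcript, with 1.06 to 1.75 FPKM in the 10 libraries, 4.80 and 6.12 FPKM in replicates 4 and 8, and 4.62 to 11.8 FPKM in the 36 others.

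In the HIP and STR, where no library had such a ratio, strain differences in nicotine rats were fewer. At 200 to under 400 bases the ratio lay between 0.704 and 0.766 in all 48 libraries of the HIP and between 0.714 and 0.756 in those of the STR. In the HIP, 63 members were higher and 9 lower in HIV_Nic rats (5.87%, against 5.11% of all tested, 3.36% higher and 1.75% lower), 197 had an unadjusted p under 0.05, and 0 passed the adjusted threshold by limma (0.0266% of all tested). Without HIV_Nic replicate 4, 44 were higher and 11 lower, and the median log2 fold change over the members went from 0.13 to 0.08. Over all transcripts tested, with all libraries, that median was 0.06. With median scaling, 36 were higher and 18 lower, and the ANOVA and Tukey-Kramer test gave 40 higher and 7 lower. The riser with the smallest p, just under 700 bases long, had medians of 1.96 FPKM in F344_Nic (0.836 to 2.45) and 3.27 FPKM in HIV_Nic rats (1.67 to 5.49), a log2 fold change of 0.77 (SE 0.17, adjusted p = 0.065 by limma). In the STR, 40 members were higher and 86 lower (10.2%, against 5.74% of all tested, 2.19% higher and 3.55% lower), and 1 passed the adjusted threshold (0.027% of all tested). It was a 525-base transcript that ranged from 46.3 to 58.0 FPKM in F344_Nic (median 52.1) and from 29.0 to 49.5 FPKM in HIV_Nic rats (median 44.3), with a log2 fold change of -0.39 (SE 0.08, adjusted p = 0.033 by limma), a call that was lost with only the 2 groups compared (adjusted p = 0.357 by limma). At 200 to under 400 bases, 35 of 323 STR members were lower and 17 higher. A 282-base transcript was the only member higher in HIV_Nic rats in all 3 regions, with log2 fold changes of 2.13 (SE 0.21) in the PFC, 0.45 (SE 0.16) in the HIP, and 0.30 (SE 0.12) in the STR. In the PFC it had 2.25 to 5.38 FPKM in the 10 F344_Nic libraries, against 15.7 and 8.95 FPKM in replicates 4 and 8.

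**Figure D5:**
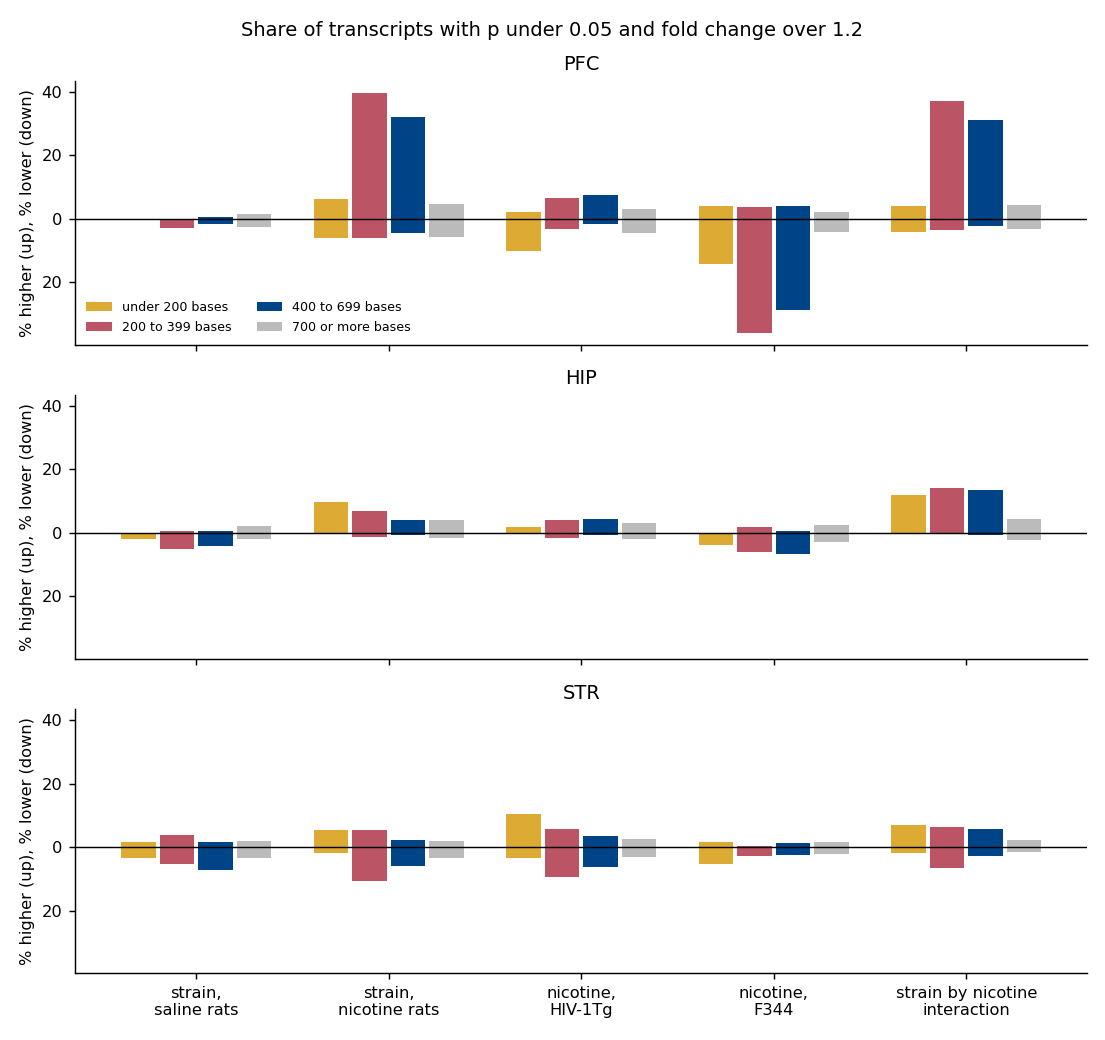
Share of transcripts (y axes, percent, higher upwards and lower downwards) with p under 0.05 and a fold change over 1.2, for each comparison, by length class (colours), in the 3 regions. In the PFC the bars of 200 to under 700 bases are longest in the comparisons that use the F344_Nic rats, with 211 of 732 members of 400 to under 700 bases lower with nicotine in F344 rats.

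In HIV-1Tg rats, 0 members of the PFC and HIP passed the adjusted threshold with nicotine by limma with all libraries. Fewer members changed once the libraries that stood apart were left out. The share of all transcripts tested is given for the fits with all libraries only. In the PFC, 74 members were higher and 26 lower in HIV_Nic than in HIV_Sal rats (9.44%, against 6.49% of all 14715 tested, 3.17% higher and 3.32% lower), and 0 passed the adjusted threshold by limma (0.0% of all tested), with 112 at an unadjusted p under 0.05. Without HIV_Nic replicates 10 and 11, 15 were higher and 16 lower, and the median log2 fold change over the members went from 0.13 to -0.02. Over all transcripts tested, with all libraries, that median was 0.01. The ANOVA and Tukey-Kramer test gave 21 higher and 11 lower. A 522-base transcript rose the most clearly by p, from a median of 40.1 FPKM in HIV_Sal (21.1 to 82.8) to 66.2 FPKM in HIV_Nic rats (29.9 to 145), a log2 fold change of 0.76 (SE 0.20, adjusted p = 0.718 by limma). In the HIP, 51 were higher and 11 lower (5.06%, against 4.56% of all tested, 2.79% higher and 1.78% lower), 162 had an unadjusted p under 0.05, and 0 passed the adjusted threshold by limma (0.0% of all tested). With median scaling, 26 were higher and 14 lower, without HIV_Nic replicate 4, 33 and 12, and with the ANOVA and Tukey-Kramer test 38 and 7. A 358-base transcript of the HIP had medians of 35.7 FPKM in HIV_Sal (29.0 to 42.6) and 42.4 FPKM in HIV_Nic rats (34.5 to 66.9), a log2 fold change of 0.30 (SE 0.08, adjusted p = 0.695 by limma). A 638-base transcript fell from a median of 22.1 to 6.11 FPKM (log2 fold change -3.12, SE 0.87), with 4 HIV_Nic rats at 0.

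In the STR of HIV-1Tg rats, 12 members were lower with nicotine past the adjusted threshold, and 1 of them remained past it without HIV_Sal replicates 2 to 7, the libraries that stood apart. Between HIV_Nic and HIV_Sal rats, 53 members were higher and 86 lower (11.3%, against 6.53% of all 14939 tested, 2.36% higher and 4.18% lower), and 13 passed the adjusted threshold (0.248% of all tested), 12 lower and 1 higher. Of the 8793 transcripts of 700 bases or more that met the level rule, 1 passed it. The 12 that fell measured 252 to 620 bases, 5 of them under 400 bases, and had medians of 2.19 to 128 FPKM over the 48 rats, under 5 FPKM for 7 of them. None was at 0 in any rat. Their log2 fold changes were between -1.32 and -0.28, and for each, 11 or 12 of the 12 HIV_Nic rats lay below the median of the HIV_Sal rats, but for none did the groups separate fully. Without HIV_Sal replicates 2 to 7, 46 members were higher and 66 lower. Of the 12, all had a negative log2 fold change in that fit, with a median of -0.48, 10 had an unadjusted p under 0.05, and 1 an adjusted p under 0.05, in a fit with fewer samples. With only these 6 as the HIV_Sal group, which has as few samples, 90 were higher and 95 lower, 31 passed the adjusted threshold, 10 of the 12 among them, and the median log2 fold change of the 12 was -1.01. For 7 of the 12, HIV_Sal replicates 2 to 7 all lay above the other 6 HIV_Sal libraries, as did 29 of the 1232 members (2.35%) and 0.716% of all transcripts tested. The part of these libraries in the result was not tested. The 13 past the adjusted threshold became 18 without HIV_Sal replicate 1, 9 on the coverage scale, and 3 in the fit with only the 2 groups compared.

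The member with the smallest p was the 339-base transcript ENSRNOT00000061886. It ranged from 2.36 to 7.87 FPKM in HIV_Sal rats (median 5.09) and from 0.77 to 4.00 FPKM in HIV_Nic rats (median 2.17). The medians of the F344 groups lay between these, at 3.5 FPKM in F344_Sal (2.50 to 5.10) and 2.95 FPKM in F344_Nic rats (1.52 to 4.44), and the ranges of all 4 groups overlapped. The log2 fold change with nicotine was -1.32 in HIV-1Tg rats (SE 0.21, adjusted p = 0.000845 by limma), and its adjusted p was under 0.05 in each alternative that gave one, except without HIV_Sal replicates 2 to 7. In those 6 libraries it had 4.97 to 7.87 FPKM, against 2.36 to 5.21 FPKM in the other HIV_Sal rats, and without them the log2 fold change was -0.89 (SE 0.25, adjusted p = 0.357 by limma). A 375-base transcript had medians of 4.64 FPKM in HIV_Sal (2.97 to 7.69) and 2.57 FPKM in HIV_Nic rats (1.30 to 3.24), and its log2 fold change was -0.88 (SE 0.15, adjusted p = 0.00133 by limma). It had 5.29 to 7.69 FPKM in HIV_Sal replicates 2 to 7 and 2.97 to 3.99 FPKM in the other HIV_Sal rats, and the log2 fold change without the former was -0.49 (SE 0.16, adjusted p = 0.597 by limma). The most abundant of the 12, a 252-base transcript, had medians of 180 FPKM in HIV_Sal (118 to 260) and 99.5 FPKM in HIV_Nic rats (56.8 to 123), a log2 fold change of -0.94 (SE 0.16, adjusted p = 0.00135 by limma). In HIV_Sal replicates 2 to 7 it had 227 to 260 FPKM, in the other HIV_Sal rats 118 to 133 FPKM, and the log2 fold change without the former was -0.48 (SE 0.17, adjusted p = 0.621 by limma). It had medians of 194 FPKM in F344_Sal and 141 FPKM in F344_Nic rats. The 466-base transcript was the exception that remained past the adjusted threshold. It had 4.81 to 7.66 FPKM in HIV_Sal replicates 2 to 7, 4.92 to 11.3 FPKM in the other HIV_Sal rats, and 1.69 to 5.08 FPKM in the HIV_Nic rats, with a log2 fold change of -0.96 in all rats and -1.25 without those 6 (SE 0.20, adjusted p = 0.0052 by limma). The member that rose, the 436-base transcript ENSRNOT00000008925, had medians of 4.69 FPKM in HIV_Sal (4.04 to 5.93) and 7.08 FPKM in HIV_Nic rats (3.99 to 9.43), and 11 of the 12 HIV_Nic rats lay above the median of the HIV_Sal rats. Its log2 fold change was 0.52 (SE 0.11, adjusted p = 0.0173 by limma), and the adjusted p was 0.119 on the coverage scale and 0.111 with only the 2 groups compared. Without HIV_Sal replicates 2 to 7 the log2 fold change was 0.62 (SE 0.14, adjusted p = 0.102 by limma).

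The 12 members that fell in the STR also varied together within groups. Over the 48 rats, after the group means were subtracted, their log2 values had a median correlation of 0.331 between pairs, from -0.242 to 0.688, against 0.0269 for the 1058 other STR members of 200 to under 700 bases with a value in every rat. Over the 42 rats without HIV_Sal replicates 2 to 7 the medians were 0.257 and 0.0308. All of these values share the libraries they came from. The 12 were picked for falling with nicotine, whereas the others were not picked by direction, and over the 48 rats pairs of the others ranged from -0.859 to 0.994. The contrast is therefore a description. In F344 rats the log2 fold change with nicotine was between -0.31 and 0.02, with 0 of the 12 at an unadjusted p under 0.05 by limma. The difference between the strains in the effect of nicotine had an unadjusted p under 0.05 for 11 of the 12 and passed the adjusted threshold for 0 of them (lowest adjusted p 0.421 by limma). The 12 were picked on the difference between HIV_Nic and HIV_Sal rats, which is part of this interaction, so the unadjusted count is a description and no separate evidence. In the other regions of HIV-1Tg rats, the median log2 fold change of the same 12 transcripts with nicotine was 0.12 in the PFC, where that of all members was 0.13. Without HIV_Nic replicates 10 and 11 the medians were -0.04 and -0.02, with 0 of the 12 at an unadjusted p under 0.05 in either fit. In the HIP the median of the 12 was -0.09, against 0.11 for all members, and 1 fell and 2 rose at that threshold. Without HIV_Nic replicate 4 the HIP medians were -0.10 and 0.06, with the same counts.

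In F344 rats, most members of the HIP that changed with nicotine were lower, and in the STR the share that changed was near that of all transcripts tested. In the HIP, 12 were higher (0.979%) and 78 lower (6.36%), in sum 7.34% (against 5.6% of all 15022 tested, 2.4% higher and 3.2% lower), 137 had an unadjusted p under 0.05, and 0 passed the adjusted threshold by limma (0.00666% of all tested). The ANOVA and Tukey-Kramer test gave 9 higher and 59 lower. A 495-base transcript of the HIP fell from a median of 4.27 FPKM in F344_Sal (1.82 to 11.8) to 2.15 FPKM in F344_Nic rats (1.27 to 4.04), a log2 fold change of -1.03 (SE 0.25, adjusted p = 0.197 by limma). A 459-base transcript rose from 4.43 FPKM (2.21 to 8.30) to 8.98 FPKM (4.35 to 12.1), a log2 fold change of 0.85 (SE 0.25, adjusted p = 0.471 by limma). In the STR, 12 were higher (0.974%) and 33 lower (2.68%), in sum 3.65% (against 3.9% of all 14997 tested, 1.5% higher and 2.4% lower), 81 had an unadjusted p under 0.05, and 0 passed the adjusted threshold by limma (0.00667% of all tested). With median scaling, 18 were higher and 18 lower, and the ANOVA and Tukey-Kramer test gave 9 and 32. The transcript just under 200 bases that was the steadiest of the shortest STR members had medians of 119 FPKM in F344_Sal (97.5 to 149), 97.1 FPKM in F344_Nic (84.4 to 124), 99.2 FPKM in HIV_Sal (79.5 to 136), and 119 FPKM in HIV_Nic rats (92.9 to 176). Its log2 fold change with nicotine was -0.34 in F344 (SE 0.10, adjusted p = 1.0 by limma) and 0.28 in HIV-1Tg rats (SE 0.10, adjusted p = 0.319 by limma).

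With all libraries, the interaction of strain and nicotine passed the adjusted threshold for many members of the PFC and for 0 members in the other regions. The PFC interaction uses the 10 F344_Nic libraries that stood apart, and the part of these libraries in it was not tested. The interaction, the nicotine effect in HIV-1Tg rats less that in F344 rats, was positive for 332 and negative for 28 members of the PFC at the unadjusted threshold (34.0%, against 11.3% of all 13659 tested, 8.11% positive and 3.17% negative), and 212 passed the adjusted threshold (4.08% of all tested). Without HIV_Nic replicates 10 and 11, 289 were positive and 40 negative. With only replicates 4 and 8 of the F344_Nic rats, 41 were positive and 6 negative, and 0 passed the adjusted threshold. Fewer samples enter that fit, so its counts cannot be set directly against those of the full fit. In the HIP, 166 were positive and 6 negative (14.0%, against 6.85% of all 14087 tested, 4.63% positive and 2.22% negative), 222 had an unadjusted p under 0.05, and 0 passed the adjusted threshold by limma (0.0% of all tested). Without HIV_Nic replicate 4 the HIP counts were 93 and 6, and with median scaling 63 and 15. In the STR, 74 were positive and 47 negative (9.82%, against 4.53% of all 14012 tested, 2.33% positive and 2.21% negative), 151 had an unadjusted p under 0.05, and 0 passed the adjusted threshold by limma (0.0% of all tested). With median scaling they were 57 and 55, without HIV_Sal replicates 2 to 7 55 and 29, and with only these 6 of the HIV_Sal rats 133 and 58, of which 9 passed the adjusted threshold.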

How the data were processed

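RNA from 3 brain regions was sequenced in 144 samples, with the TruSeq RNA kit. Per the study's methods, the authors used Bowtie (version 1.04 in the submitters' processing notes) and TopHat for alignment against Rn4, and Cufflinks gave the FPKM of each Ensembl transcript. The deposited tables, 6 in number, pack FPKM with its confidence interval, base coverage, and length, among other fields, and 0 sample columns were left unused. Where a cell held several records, their FPKM was summed. The number of reads per sample is unknown here, so no counting error was computed beyond the confidence interval that Cufflinks gave. What limits the precision was not tested.

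Members and lists were chosen with earlier results of these data known. Class "=" transcripts were tested on log2(FPKM + 0.1) with limma 3.58.1 in R 4.3.3, with the 4 groups of a region in 1 fit and a trended prior, if FPKM was above 0.01 in at least 6 of 12 rats of each group compared. Fold changes on this scale understate the change of low transcripts. The study names strain and sex as the factors of its two-way ANOVA, followed by a Tukey-Kramer test, without low values and outliers. All rats were male, so an ANOVA of strain and drug was run as an alternative instead, with an assumed limit of 1.5 interquartile ranges. P-values were adjusted by Benjamini-Hochberg over all transcripts tested. On simulated data, 67.5% of 200 transcripts given a log2 change of 2 in HIV_Sal against F344_Sal rats were found among 14803 in the PFC, 68.0% among 14959 in the HIP, and 63.5% among 15090 in the STR, with 5, 7, and 9 false calls. Named transcripts were, per region and comparison, up to 2 that rose and 2 that fell with the smallest p, those past the adjusted threshold (counts and ranges only for the many in the PFC), the highest, steadiest, and least steady of each length class, and those that differed between strains in all regions or with both drugs. Of these, a selection is shown with values. A few PFC transcripts with ranks below these, and the regional ratios, were picked after their values were seen.

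The alternatives set at the start were pseudocounts of 1 and 0.01, no filter, median scaling, removal of low values and outliers, the replicate block, only the 2 groups compared, the ANOVA, and certain libraries left out. Others were chosen after seeing the data: the coverage scale, lengths under 700 bases in every rat, the PFC with or without F344_Nic replicates 4 and 8, and the STR with or without HIV_Sal replicates 2 to 7.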

Additional observations from a re-analysis of the deposited data

Results flagged for a closer look

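The number of PFC members whose nicotine effect differed between the strains, 212 past the adjusted threshold of limma's interaction term, is listed because the difference itself passed its test. Of these, 202 were higher and 10 lower in HIV-1Tg relative to F344 rats, and by length class they were 1, 69, and 142 members. On the coverage scale the number was 153, without HIV_Nic replicates 10 and 11 it was 227, and with only replicates 4 and 8 of the F344_Nic group it was 0. In that last fit 2 libraries stand for the F344_Nic group, and they were assumed to vary like the other groups, so its count cannot be set directly against the others. The other counts include the 10 F344_Nic libraries that stood apart, and the part of these libraries was not tested.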

How the results depend on the processing

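Counts of changed members and of members past the adjusted threshold, levels, and spreads were recomputed under each alternative. Of these values, 376 stayed within the limit set for a change and 68 moved. For single transcripts, 866 values kept their direction and side of the threshold for a change, 82 kept only the direction, 2 passed that threshold only under the alternative, and 8 reversed. Where no cause is named, the cause was not tested.

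Removal of low values and outliers, which narrows the spread by its construction, moved most. Changed members in saline strains became 77, 107, and 164 in the PFC, HIP, and STR, and those past the adjusted threshold 4, 6, and 51. Between nicotine-treated strains, 402, 10, and 25 passed the adjusted threshold. For nicotine in HIV-1Tg rats 1 passed in the PFC and 57 in the STR, and 100 changed in the HIP. For nicotine in F344 rats 414 passed in the PFC and 17 in the HIP, and 89 changed in the STR. For the interaction 334, 8, and 3 passed, and 191 changed in the STR. The levels under 200 bases became 10.4, 11.8, and 8.97 FPKM, those of the STR at 200 to under 400 and 400 to under 700 bases 11.6 and 10.7 FPKM, and the spread under 200 bases in the STR 0.63.

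On the coverage scale the levels of the 3 length classes were 3.95, 7.86, and 7.65 in the STR, 3.74, 8.59, and 10.1 in the PFC, and 4.47, 7.68, and 7.58 in the HIP. With only F344_Nic replicates 4 and 8 in the PFC, 33 members changed between nicotine-treated strains (1 past the adjusted threshold), 28 with nicotine in F344 rats (1), and 47 in the interaction (0), with fewer samples. Without HIV_Nic replicates 10 and 11 in the PFC, 42 changed in saline strains and 31 with nicotine in HIV-1Tg rats. Without HIV_Nic replicate 4 in the HIP, 99 changed in the interaction, and without HIV_Sal replicate 1 in the STR, 8 passed the adjusted threshold in saline strains. In the STR, 0 members passed the adjusted threshold in saline strains and 1 with nicotine in HIV-1Tg rats without HIV_Sal replicates 2 to 7. With only these 6 as the HIV_Sal group, 213 changed in saline strains (46 past the adjusted threshold) and 191 in the interaction (9), and 31 passed with nicotine in HIV-1Tg rats. With lengths under 700 bases in every rat, which tests fewer members, 15 changed in saline strains of the PFC.

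With only the 2 groups compared, which has fewer samples, 51 changed with nicotine in HIV-1Tg rats of the PFC. Those past the adjusted threshold were then 0 in saline strains of the HIP and STR, 0 in nicotine-treated strains of the STR, and 3 with nicotine in HIV-1Tg rats of the STR. With the ANOVA and Tukey-Kramer test, 32 changed with nicotine in HIV-1Tg rats of the PFC and 47 between nicotine-treated strains of the HIP. With median scaling, 40 changed with nicotine in HIV-1Tg rats and 78 in the interaction of the HIP, and 1 passed the adjusted threshold in saline strains of the STR. Without a filter, 0 passed in saline strains of the HIP and 1 in the STR, and with a pseudocount of 1, 5 passed in the STR.

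The replicate numbers did not pair the samples. Deviations from the group means of same-numbered samples correlated between -0.0688 and 0.105 in the STR, -0.0367 and 0.0468 in the PFC, and -0.0469 and 0.0496 in the HIP, over 72 pairs each. With the replicate block, 0 members passed the adjusted threshold in saline strains of the HIP and of the STR, and 2 in nicotine-treated strains of the STR. No count of changed members moved by over 1.5 times with the block.

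Of the reversed values, a 509-base transcript of the PFC had log2 fold changes of 0.45 between nicotine-treated strains and -0.35 with nicotine in F344 rats when only F344_Nic replicates 4 and 8 were kept. With low values and outliers removed, by limma and by the ANOVA, the 558-base and 458-base transcripts of the PFC had -0.09 and -0.01 and the 431-base transcript of the STR -0.01 in saline strains. Low values and outliers were removed together, and values of 0 alone were not.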
